A study of Rattus norvegicus with 6 samples.

Results

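The ATG8 proteins and the selective autophagy receptors were examined at the transcript level in cultured rat spinal cord neurons after silencing of galectin-3 (GAL3, gene LGALS3). ATG8 proteins are small ubiquitin-like proteins that are joined to a lipid of the growing autophagosome membrane. They fall into an LC3 subfamily, here MAP1LC3A and MAP1LC3B, and a GABARAP subfamily, here GABARAP, GABARAPL1 and GABARAPL2. Selective autophagy receptors hold cargo on one side and a lipidated ATG8 protein on the other, and are usually degraded together with their cargo. SQSTM1 (P62), OPTN, NBR1, CALCOCO1 and TAX1BP1 are soluble receptors of this kind, and SQSTM1 and LC3 are the proteins most often used to follow autophagy in neurons. The 10 genes were chosen by symbol, and all 10 were found among the 17648 rows of the expression matrix.

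Neonatal Sprague-Dawley rats were the source of the spinal cord neurons in all libraries, and these were cultured for 3 days with cytarabine (Ara-C), which limits dividing cells. The Glu + siR-Con group (3 libraries) was transfected with a control siRNA and the Glu + siR-GAL3 group (3 libraries) with an siRNA against GAL3. By the methods of the study, both groups were then injured with 10 μM glutamate for 1 h and kept for 16 h in glutamate-free medium, so no library stands for uninjured neurons. The sample labels instead give saline to the controls and call the GAL3 samples a knockout. If the labels were right, glutamate and silencing could not be told apart. The methods speak of at least 3 independent repeats for all data of the study, without saying that each library came from its own culture. If the libraries did not, the p-values measure the spread between these samples only, which may be technical. Whichever holds, the authors also corrected differences within groups. This limits what the spread behind the p-values, and the lack of overlap between groups, can show.

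The values were linear expression values that the authors derived from FPKM (a fragment count scaled to transcript length and library size) and corrected further. Levels are set side by side between genes on the assumption that these corrections kept that scaling. Depth is unknown, and 3.86% of all values were below 0, none of them in the 10 genes. LGALS3 was between 54.4 and 77.4 in siR-Con and stood at -1.64, 32.3 and 18.5 in siR-GAL3 replicates 1, 2 and 3, which did not overlap (limma log2 fold change -2.91 ± 1.20 (SE), unadjusted p = 0.0462, adjusted p = 0.571). This log2 fold change was -1.35 without siR-GAL3 replicate 1. Exactly equal values divided the libraries into 3 sets, one with replicate 1 of both groups, one with replicates 2 and 3 of siR-Con plus replicate 3 of siR-GAL3, and one holding siR-GAL3 replicate 2 by itself. That last library also lay far from the rest along principal component 1, which took up 65.2% of the variance. Of 12 neuron markers 11 were listed and 6 reached a mean of 1. MAP2 was between 13.1 and 18.99, ELAVL3 between 7.81 and 11.02, GAP43 between 7.52 and 10.7 and TUBB3 between 4.03 and 5.19, while RBFOX3 (NeuN) was between 0.300 and 0.429. The astrocyte gene GFAP was between 515 and 758 and the myelin gene MBP between 629 and 919. Every listed neuron marker lay far below both in all libraries. The cultures therefore held RNA of several cell types, and in such bulk libraries fewer cells of a type and less RNA per cell cannot be told apart.

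SQSTM1 had the highest level of the 10 genes and ranked 103 of 17648 by its mean over the 6 libraries. GABARAP and MAP1LC3B followed, with means of 39.8 and 26.8. NBR1 (12.04), TAX1BP1 (10.6) and MAP1LC3A (9.81) came next, and the ranges of these neighbours overlapped. GABARAPL1 (6.68) and GABARAPL2 (5.33) overlapped as well, and OPTN (3.58) lay below both in all libraries. CALCOCO1, a receptor for the endoplasmic reticulum and Golgi, was listed between 0.00285 and 0.0336 and was the only one of the 10 genes that did not reach the mean of 1 required for testing. Its value was exactly equal in replicate 1 of both groups and in replicate 3 of both groups, so it was not compared further.

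**Figure D1:**
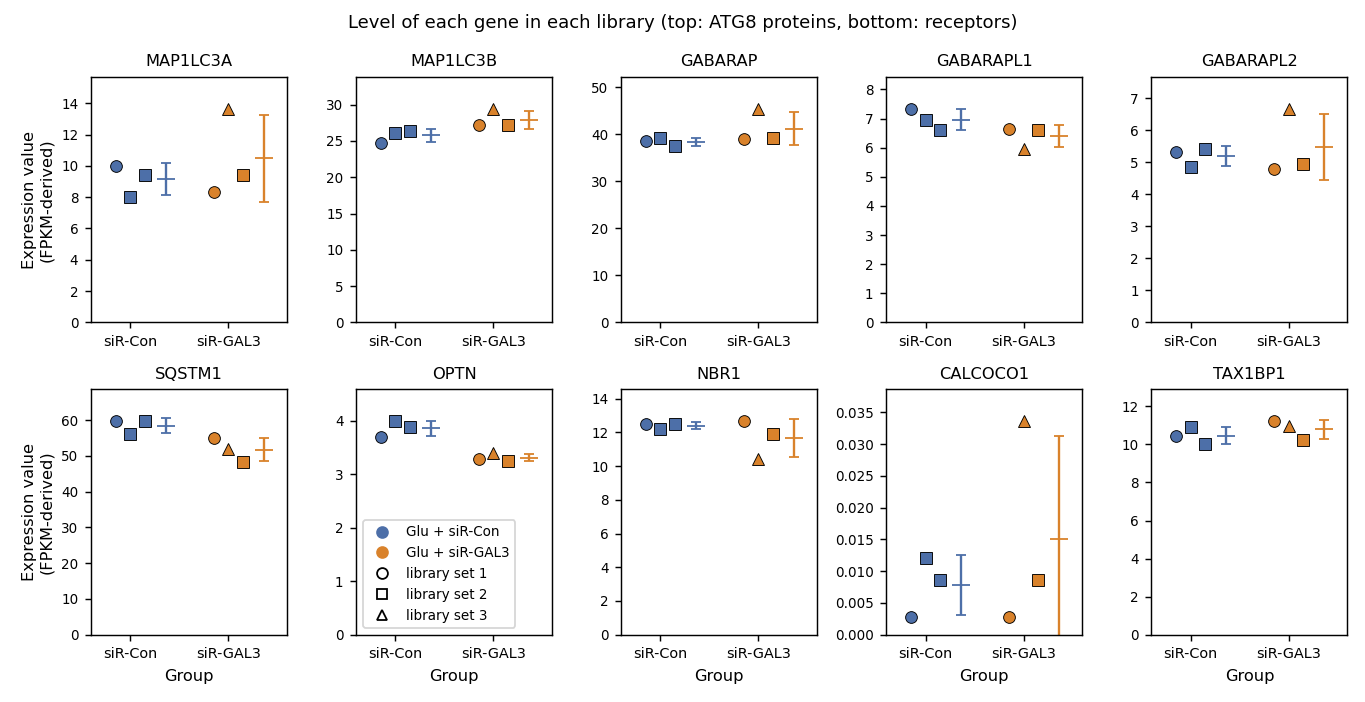
Expression value (linear axis from 0) of the 10 genes in each library of Glu + siR-Con (blue) and Glu + siR-GAL3 (orange). Symbols mark the library set, and the bar beside each group is its mean ± SD (n = 3). The groups do not overlap for MAP1LC3B, SQSTM1 and OPTN, and the triangle, siR-GAL3 replicate 2, is the highest library for MAP1LC3A, MAP1LC3B, GABARAP and GABARAPL2.

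Among the ATG8 genes, MAP1LC3B, the LC3 form whose lipidation is read as LC3 II on Western blots, was slightly higher after silencing of GAL3. In the order of replicates 1, 2 and 3, used throughout, it was 24.7, 26.1 and 26.4 in siR-Con and 27.2, 29.4 and 27.1 in siR-GAL3. Each siR-GAL3 library thus lay above each siR-Con library, the nearest being 27.1 and 26.4. The means were 25.8 ± 0.903 and 27.9 ± 1.29 (SD, n = 3 each), a difference of 8.25%. In limma on log2(value + 1) the log2 fold change was 0.11 ± 0.07 (SE) with a 95% interval from -0.05 to 0.27, which did not pass (unadjusted p = 0.154, adjusted p = 0.596). MAP1LC3B2, a paralog of this gene, was listed at no more than 0.123 in any library. How reads that match both were handled is not stated, so this low value does not show whether MAP1LC3B lost reads.

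GABARAP, which acts late in autophagosome closure and fusion, was the most abundant ATG8 transcript. It was 38.5, 39.2 and 37.4 in siR-Con and 39.03, 45.3 and 39.2 in siR-GAL3, and siR-Con replicate 2 and siR-GAL3 replicate 3 held exactly the same value. Only siR-GAL3 replicate 2 lay clearly above the controls, and the log2 fold change was 0.10 (95% interval -0.09 to 0.29, unadjusted p = 0.273 in limma). MAP1LC3A, the other LC3 form, was 10.0, 8.01 and 9.41 in siR-Con and 8.35, 13.6 and 9.45 in siR-GAL3. Its fitted log2 fold change of 0.16 (95% interval -0.25 to 0.56) came from replicate 2, and without that library the value was -0.03. GABARAPL2 was likewise highest in that library, at 5.33, 4.84 and 5.41 in siR-Con and 4.79, 6.66 and 4.96 in siR-GAL3. Its log2 fold change was 0.05 with all libraries and -0.07 without siR-GAL3 replicate 2.

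GABARAPL1, a FOXO-responsive form that is abundant in the nervous system, was the only ATG8 gene with a negative estimate in the fit of all 6 libraries. It was 7.33, 6.94 and 6.60 in siR-Con and 6.64, 5.95 and 6.60 in siR-GAL3. The groups overlapped only in the values near 6.6, and the log2 fold change of -0.11 (95% interval -0.28 to 0.07) did not pass (unadjusted p = 0.192 in limma). Leaving out any single library gave an estimate between -0.14 and -0.06.

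The 5 ATG8 genes were added up as a pool. This assumes that the authors' further corrections kept the scaling to transcript length. The pool was 85.9, 85.1 and 85.3 in siR-Con and 86.0, 100.9 and 87.4 in siR-GAL3. It was thus nearly constant in 5 libraries and higher in siR-GAL3 replicate 2. The parts of GABARAP and MAP1LC3B in the pool varied little. GABARAP held between 43.9% and 46.1% of it, MAP1LC3B between 28.8% and 31.6% and MAP1LC3A between 9.40% and 13.5%. GABARAPL1 held 8.14% ± 0.393 in siR-Con and 7.06% ± 1.01 in siR-GAL3 (SD, n = 3 each), and its lowest share, 5.89%, was that of siR-GAL3 replicate 2. Its share did not overlap between the groups, but the nearest libraries, at 7.74% and 7.73%, were almost equal. The difference in share was not tested. The LC3 subfamily together held 40.9% ± 1.03 and 41.9% ± 0.655 of the pool (SD, n = 3 each), and the groups overlapped.

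**Figure D2:**
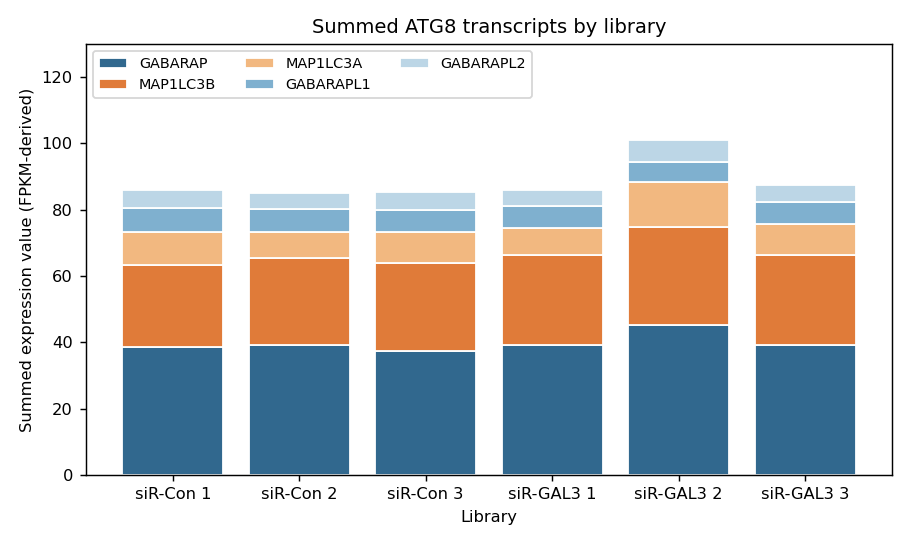
Summed expression value of the 5 ATG8 genes in each library, with 1 segment per gene. GABARAP and MAP1LC3B make up most of each bar, and siR-GAL3 replicate 2 is the tallest bar at 100.9 against 85.1 to 87.4 in the other 5 libraries.

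Among the receptors, SQSTM1, which binds ubiquitinated cargo and forms condensates that recruit LC3, was lower after silencing of GAL3. It was 59.6, 56.1 and 59.6 in siR-Con and 54.9, 51.9 and 48.4 in siR-GAL3. All siR-GAL3 libraries lay below all siR-Con libraries. The means were 58.4 ± 2.02 and 51.7 ± 3.25 (SD, n = 3 each), a difference of -11.5%. The limma log2 fold change was -0.17 ± 0.07 (SE) with a 95% interval from -0.35 to 0.00245, which did not pass (unadjusted p = 0.0525, adjusted p = 0.577). Within the first library set the difference on log2(value + 1) was -0.12 and within the second it was -0.25. Blocking on the library set in limma gave -0.19 (unadjusted p = 0.0200, adjusted p = 0.254), and over all alternative fits on the log2 scale, this one included, the adjusted p lay between 0.254 and 0.874.

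OPTN, a receptor for ubiquitinated mitochondria and bacteria that is phosphorylated by TBK1, had the smallest unadjusted p of the 9 tested genes and was lower in siR-GAL3. It was 3.70, 3.99 and 3.89 in siR-Con and 3.29, 3.39 and 3.25 in siR-GAL3. The gap between the groups, from 3.39 to 3.70, was wider than the range of either group. The means were 3.86 ± 0.148 and 3.31 ± 0.0699 (SD, n = 3 each), a difference of -14.1%. The limma log2 fold change was -0.17 ± 0.06 (SE, unadjusted p = 0.0275, adjusted p = 0.523, and between 0.122 and 0.874 in the other fits on the log2 scale). OPTN was the only one of the 9 tested genes below the unadjusted threshold of 0.05, and it was above it when siR-Con replicate 2 or 3 or siR-GAL3 replicate 1 or 3 was left out. The difference was -0.13 within the first library set and -0.22 within the second. It did not rest on siR-GAL3 replicate 2, without which the log2 fold change was -0.18 and the unadjusted p = 0.00621 in limma.

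NBR1, which cooperates with SQSTM1 in condensing ubiquitinated proteins, was 12.5, 12.2 and 12.5 in siR-Con and 12.7, 10.4 and 11.9 in siR-GAL3. Its log2 fold change of -0.09 (95% interval -0.28 to 0.11) shrank to -0.02 without siR-GAL3 replicate 2. TAX1BP1, which joins the same condensates and recruits the scaffold RB1CC1, was 10.4, 10.9 and 10.0 in siR-Con and 11.2, 10.95 and 10.2 in siR-GAL3. The log2 fold change was 0.04 (95% interval -0.12 to 0.20), and the groups overlapped for both genes. The ratio of SQSTM1 to MAP1LC3B was 2.41, 2.15 and 2.25 in the siR-Con libraries and 2.02, 1.77 and 1.78 in the siR-GAL3 libraries, with no overlap. This ratio restates the opposite directions of both genes and adds no separate test.

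**Figure D3:**
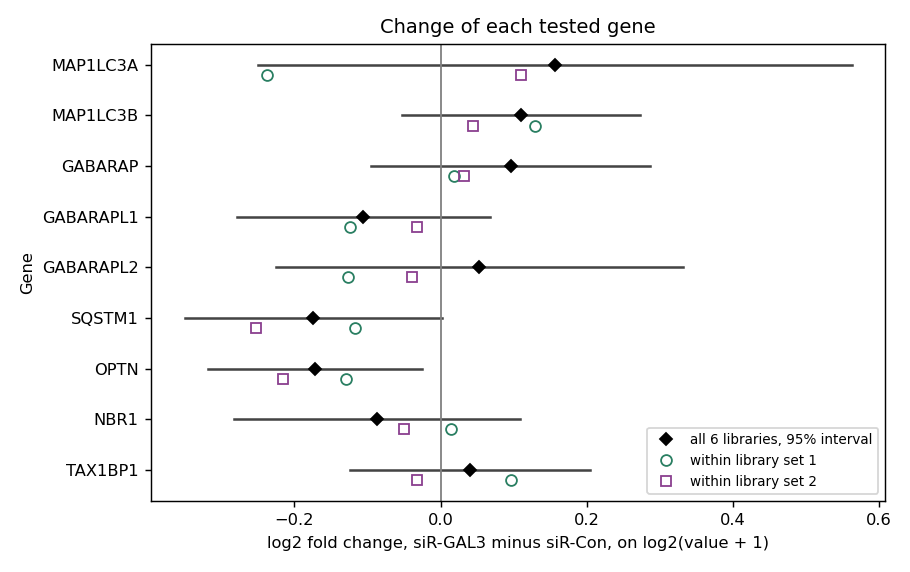
Change of the 9 tested genes in siR-GAL3 against siR-Con on the log2(value + 1) scale, with the limma estimate over all 6 libraries (diamond, bar for the 95% interval) and the difference within library set 1 (circle) and library set 2 (square). OPTN is the only gene whose interval lies wholly below 0, and within both sets SQSTM1, OPTN, GABARAPL1 and GABARAPL2 are negative and MAP1LC3B and GABARAP positive.

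Over the 9 tested genes, 1 (OPTN) had an unadjusted p under 0.05, against 8.66% of all 8495 genes tested, so this count was near the background. It was lower in siR-GAL3, as were 4.25% of all genes at this threshold, and 0 of the 9 genes were higher at it, against 4.41% of all genes. None met the study criteria of |log2 fold change| > 1 with an unadjusted p under 0.05, which 0.318% of all genes did. In limma 0 genes of the matrix had an adjusted p under 0.05 (736 had an unadjusted p under 0.05). The groups did not overlap for 3 of the 9 genes, against 20.5% of all genes. The median log2 fold change of the 9 genes was 0.04, with 5 positive and 4 negative, while the median of all genes was -1.19e-05.

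Leaving out siR-GAL3 replicate 2 gave a median of -0.03, and 2 of the 9 genes, SQSTM1 and OPTN, had an unadjusted p under 0.05, against 16.3% of all genes in that fit. None of the 9 had an adjusted p under 0.05 there, against 1.97% of all genes. Blocking on the library set picked out the same 2 genes by unadjusted p, both lower, against 13.8% of all genes in either direction and 7.9% in that direction. None of the 9 passed after adjustment, against 1.25% of all genes. This block gives no weight to siR-GAL3 replicate 2, so both fits leave out the same library. Blocking on the replicate number left 0 of the 9 genes with an unadjusted p under 0.05, against 6.39% of all genes (2.95% lower), and 0 after adjustment, against 0.0706%. The sign was the same within both library sets for 6 of the 9 genes, against 54% of all genes.

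The upstream sequences of the 3 genes whose groups did not overlap are shown, together with one of TXNRD1, a NFE2L2 target described below. They are the 250 bases before the transcription start in RefSeq (rat build GRCr8), in gene orientation. The build behind the expression values was not named. Capitals mark matches on either strand to the core of the antioxidant response element, TGACNNNGC, to CACGTG, the core of the CLEAR element of lysosomal genes, or to the TATA box, TATAAA.
SQSTM1, chr10:35037751-35038000, minus strand: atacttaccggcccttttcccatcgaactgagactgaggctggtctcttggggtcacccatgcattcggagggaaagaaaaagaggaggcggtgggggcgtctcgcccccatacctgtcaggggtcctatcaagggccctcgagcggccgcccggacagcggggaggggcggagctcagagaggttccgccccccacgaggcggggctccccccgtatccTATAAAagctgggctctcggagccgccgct
OPTN, chr17:78118619-78118868, plus strand: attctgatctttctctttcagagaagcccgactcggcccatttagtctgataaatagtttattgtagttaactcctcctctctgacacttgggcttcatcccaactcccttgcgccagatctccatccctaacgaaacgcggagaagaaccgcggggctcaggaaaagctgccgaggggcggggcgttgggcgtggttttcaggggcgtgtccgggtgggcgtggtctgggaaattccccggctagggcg
MAP1LC3B, chr19:66574345-66574594, plus strand: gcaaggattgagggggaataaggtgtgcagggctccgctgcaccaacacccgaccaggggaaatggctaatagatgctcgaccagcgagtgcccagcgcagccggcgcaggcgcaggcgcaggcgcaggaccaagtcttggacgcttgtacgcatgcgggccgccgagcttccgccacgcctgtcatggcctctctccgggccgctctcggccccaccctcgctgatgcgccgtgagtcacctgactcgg
TXNRD1, chr7:22755905-22756154, minus strand: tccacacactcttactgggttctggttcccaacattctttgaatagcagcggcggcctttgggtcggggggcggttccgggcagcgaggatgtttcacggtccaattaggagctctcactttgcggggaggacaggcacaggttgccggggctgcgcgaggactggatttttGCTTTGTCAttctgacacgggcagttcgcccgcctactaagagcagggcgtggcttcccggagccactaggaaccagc

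The SQSTM1 window held TATAAA, starting at position -30 counted from the transcription start, and its GC content was 65.2%. The OPTN and MAP1LC3B windows held none of the 3 motifs, with GC contents of 56.4% and 67.2%. The TXNRD1 window held TGACNNNGC, read on the opposite strand, starting at position -78. RefSeq windows were found for 9 of the 10 genes, and MAP1LC3A is named only. Of these 9 windows, TATAAA was in those of SQSTM1 and GABARAPL1 (12.9% of all 33469 windows), TGACNNNGC in that of GABARAP (10.1% of all windows) and CACGTG in 0 of them (5.59% of all windows). These matches describe the letters of the windows only.

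The machinery around the ATG8 proteins was read from lists of genes. Of 13 genes for ATG8 processing and conjugation, 10 could be tested, and 0 of them had an unadjusted p under 0.05 in limma, against 8.66% of all genes. Their median log2 fold change was 0.04, with 8 positive and 2 negative. The smallest p values belonged to ATG3, the E2-like enzyme that passes ATG8 to the lipid, ATG7, the E1-like enzyme that activates it, and ATG5, part of the E3-like complex. ATG3 was 10.8 ± 0.990 in siR-Con and 12.1 ± 0.872 in siR-GAL3 (SD, n = 3 in each group), and limma gave a log2 fold change of 0.15 (unadjusted p = 0.131). ATG7 was 1.31, 1.25 and 1.25 in siR-Con and 1.31, 1.49 and 1.55 in siR-GAL3, with an overlap of the replicate 1 libraries and a log2 fold change of 0.11 (unadjusted p = 0.132 in limma). ATG5 had a log2 fold change of 0.14 (unadjusted p = 0.244), which was 0.02 without siR-GAL3 replicate 2.

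Of 24 other selective autophagy receptors, 20 could be tested and 0 had an unadjusted p under 0.05 in limma, against 8.66% of all genes (median log2 fold change 0.04). BCL2L13, a receptor in the outer mitochondrial membrane, was 3.53, 3.57 and 3.87 in siR-Con and 3.35, 2.39 and 3.34 in siR-GAL3, a log2 fold change of -0.22 (unadjusted p = 0.0890). The groups did not overlap, but without siR-GAL3 replicate 2 the log2 fold change was -0.10. SEC62, a receptor of the endoplasmic reticulum, had a log2 fold change of 0.20 (unadjusted p = 0.132), and WDFY3 (ALFY), which links aggregates to the autophagy machinery, one of -0.41 (unadjusted p = 0.140). WDFY3 stood at 1.38 in siR-GAL3 replicate 2 and between 3.19 and 3.97 in the other 5 libraries, and its log2 fold change without that library was -0.10.

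Of 20 kinases, ubiquitin regulators and scaffold partners of the receptors, 17 could be tested, and again 0 had an unadjusted p under 0.05 in limma, against 8.66% of all genes (median log2 fold change -0.03). The groups did not overlap for 6 of them, 3 higher and 3 lower in siR-GAL3, against 20.5% of all genes and 10.3% in each direction. The smallest p values belonged to TANK, an adaptor of TBK1, RB1CC1 (FIP200), the scaffold of the ULK complex that receptors recruit, and TNIP1, a ubiquitin-binding partner of TNFAIP3. Their log2 fold changes were 0.16, 0.10 and 0.12, and every siR-GAL3 library lay above every siR-Con library for RB1CC1 (1.74, 1.81 and 1.91 against 2.08, 1.92 and 2.05) and TNIP1. For TNIP1 the nearest libraries, at 4.62 in siR-GAL3 and 4.61 in siR-Con, were almost equal. TBK1, the kinase of OPTN, was 1.92, 2.14 and 2.21 in siR-Con and 2.39, 2.24 and 2.22 in siR-GAL3, also without overlap. The 3 genes lower without overlap were the TBK1 adaptor TBKBP1 (log2 fold change -0.07), the ubiquitin ligase TRAF6 (-0.21) and CSNK2A1, a catalytic subunit of casein kinase 2 (-0.35), each at -0.04 without siR-GAL3 replicate 2. TBK1 and these 3 genes were named after their values were seen.

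**Figure D4:**
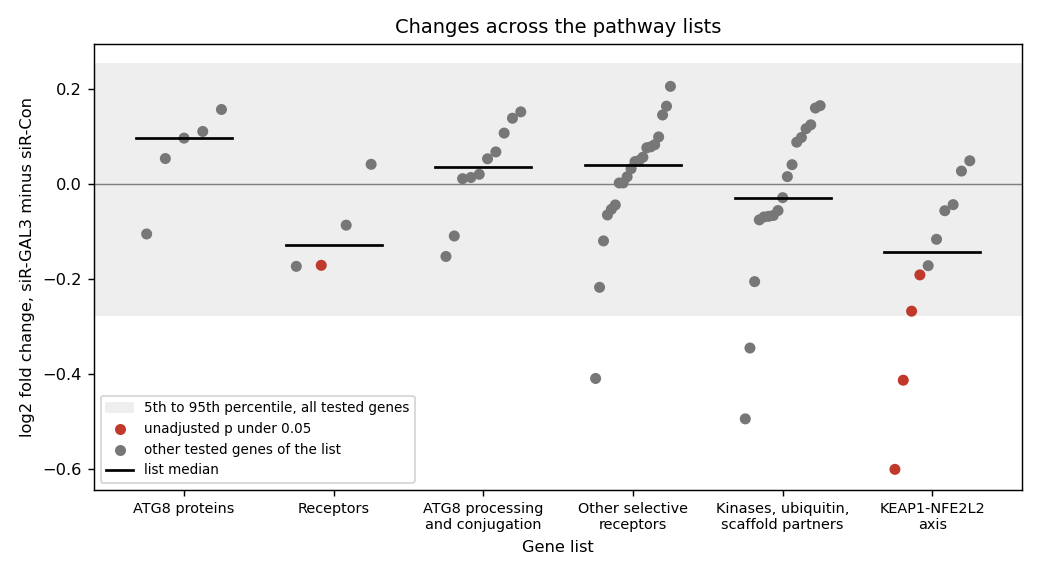
log2 fold change of every tested gene of 6 lists in siR-GAL3 against siR-Con, with the list median as a bar and the range from the 5th to the 95th percentile of all 8495 tested genes in grey (-0.28 to 0.25). Red points had an unadjusted p under 0.05 in limma. They are OPTN among the receptors and 4 genes of the KEAP1-NFE2L2 axis, all below 0.

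SQSTM1 also binds KEAP1, the repressor of the transcription factor NFE2L2 (NRF2), and is itself a known NFE2L2 target. All 10 genes of the axis could be tested. SRXN1, TXNRD1, SLC7A11 and GCLC had an unadjusted p under 0.05 in limma, all lower, against 4.25% of all genes in that direction. After adjustment 0 genes of the axis passed. The groups did not overlap for 5 genes, all lower, against 10.3% of all genes. The list was chosen with earlier results of these data known. Its counts beside those of all genes, here and below, are therefore a description and no independent evidence. The median log2 fold change was -0.14.

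SRXN1 (sulfiredoxin), which repairs oxidized peroxiredoxins, was 2.50, 2.70 and 2.98 in siR-Con and 1.67, 1.88 and 1.83 in siR-GAL3. These groups were far apart for their spread, and the log2 fold change was -0.41 ± 0.07 (SE, unadjusted p = 0.000823, adjusted p = 0.149 in limma). TXNRD1, the cytosolic thioredoxin reductase, was 7.64, 8.15 and 7.51 in siR-Con and 6.18, 6.78 and 5.90 in siR-GAL3. These groups did not overlap either, and limma gave a log2 fold change of -0.27 (unadjusted p = 0.00841, adjusted p = 0.357). Both genes were lower within each library set, with log2 differences of -0.39 and -0.44 for SRXN1 and of -0.27 and -0.35 for TXNRD1.

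SLC7A11, the cystine-glutamate exchanger that also sets extracellular glutamate, was 3.20, 4.64 and 5.11 in siR-Con and 2.98, 2.81 and 1.73 in siR-GAL3. Its difference was far from equal between the library sets, at -0.08 in the first and -1.10 in the second (log2 fold change over all libraries -0.60 ± 0.19 (SE), unadjusted p = 0.0158 in limma). GCLC, the catalytic subunit of the enzyme that starts glutathione synthesis, was 5.52 ± 0.375 in siR-Con and 4.70 ± 0.223 in siR-GAL3 (SD, n = 3 in each group), and limma gave a log2 fold change of -0.19 (unadjusted p = 0.0342). Its modifier subunit GCLM had a log2 fold change of -0.17 (unadjusted p = 0.0541) and did not overlap between the groups either. NQO1 (log2 fold change -0.12), HMOX1 (-0.04), NFE2L2 (-0.06), KEAP1 (0.03) and MAFG (0.05) overlapped between the groups, so the transcripts of NFE2L2 and of its repressor showed no separation.

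Without siR-GAL3 replicate 2, 6 of the 10 genes of the axis had an unadjusted p under 0.05, all lower, against 9.36% of all genes in that direction. SRXN1 (adjusted p = 0.0241) and TXNRD1 (adjusted p = 0.0327) passed over all genes in that limma fit, as did 1.97% of all genes. Blocking on the library set in limma, SRXN1 passed (adjusted p = 0.0353), as did 1.25% of all genes, and TXNRD1 did not (adjusted p = 0.0751). The count of axis genes with an unadjusted p under 0.05 was 2, SRXN1 and TXNRD1, when siR-Con replicate 2 or siR-Con replicate 3 was left out. Of all 8495 genes, 350 and 344 were below it in these fits, in either direction. SRXN1 and TXNRD1 were among those below it whichever library was left out. The upstream windows of 9 of the 10 genes were found in RefSeq, 10 windows in all because TXNRD1 has more than one start. TGACNNNGC was in 2 of these 10 windows, 1 of GCLM and 1 of TXNRD1, against 10.1% of all windows. The TXNRD1 window with the match is the one shown. The other TXNRD1 window and that of SRXN1 held none of the 3 motifs.

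**Figure D5:**
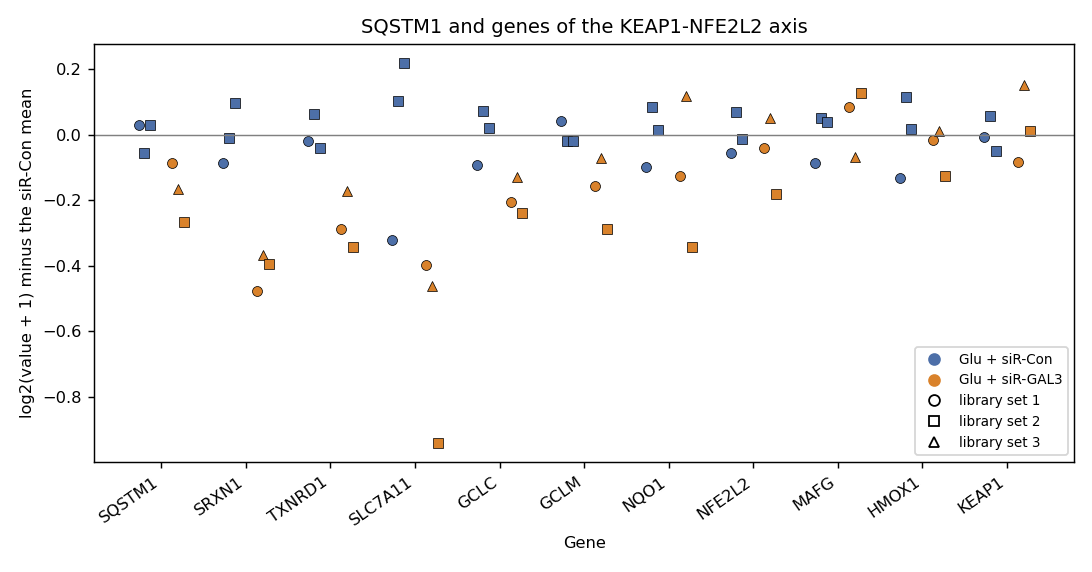
Value of each library on log2(value + 1), relative to the mean of the 3 siR-Con libraries, for SQSTM1 and the 10 genes of the KEAP1-NFE2L2 axis, ordered by p. Colours give the group and symbols the library set. All siR-GAL3 points lie below all siR-Con points for SQSTM1, SRXN1, TXNRD1, SLC7A11, GCLC and GCLM.

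Markers of other cell types also differed between the groups. Their lists, too, were chosen with earlier results of these data known. All 12 microglia markers had a positive log2 fold change, 6 with an unadjusted p under 0.05 in limma, against 4.41% of all genes in that direction, and their summed value was between 113 and 134 in siR-Con and between 145 and 165 in siR-GAL3. Of 8 astrocyte markers 6 were negative, 3 with an unadjusted p under 0.05, against 4.25% of all genes in that direction. SLC1A3 (log2 fold change 0.06) and GJA1 (0.02) were positive. The astrocyte sum was between 888 and 1029 in siR-Con and between 767 and 832 in siR-GAL3. Most of it was GFAP, with means of 655 in siR-Con and 524 in siR-GAL3, and the sum without GFAP was not computed. Of 6 tested fibroblast and meningeal markers 5 were negative, 4 with an unadjusted p under 0.05, against the same 4.25%, and the sum was between 45.8 and 53.5 in siR-Con and between 35.4 and 40.3 in siR-GAL3. Of 6 tested neuron markers 4 were positive, and 1, STMN2, had an unadjusted p under 0.05 in limma, against 4.41% of all genes in that direction. STMN2 was 0.739, 0.746 and 0.980 in siR-Con and 1.147, 1.498 and 1.227 in siR-GAL3 (log2 fold change 0.33, unadjusted p = 0.00597, adjusted p = 0.324 in limma), and SYT1 did not overlap between the groups either (log2 fold change 0.18). The sums of neuron markers (40.9 to 45.8 and 41.6 to 46.7) and of oligodendrocyte lineage markers (1055 to 1126 and 1063 to 1385) overlapped, and no endothelial marker reached a mean of 1. No listed marker was at 0 throughout. Without siR-Con replicate 2, without siR-Con replicate 3 and without siR-GAL3 replicate 3 only 1 astrocyte marker was below that threshold. The part of these cell types in the lower SQSTM1, OPTN and KEAP1-NFE2L2 axis values and in the higher MAP1LC3B values was not tested.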

How the data were processed

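RNA of 6 libraries was sequenced, 3 of Glu + siR-Con and 3 of Glu + siR-GAL3. According to the methods, the authors mapped reads with STAR, counted them with HTSeq and estimated FPKM, after which batch effects were taken out, values standardized and differences within groups corrected. The genome build and the tools of the last steps are not given in the sources used here. The deposited values are therefore an expression score that the authors made from FPKM, linear in scale and below 0 in places. Columns were matched to samples by name.

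Values below 0 were set to 0, and log2(value + 1) was fitted for 8495 genes (mean at least 1) in limma 3.58.1 (R 4.3.3) with an intensity trend, which was also tested on simulated data. This scale understates changes of low genes. Adjusted p-values are Benjamini-Hochberg values over all these genes. Tests are two-sided, and an exact permutation test of 3 against 3 libraries cannot go below p = 0.1. The 24 genes tested that held a value below 0 include LGALS3. Libraries sharing at least 1000 identical values other than 0 were put in 1 set.

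All 10 genes, LGALS3 and the 3 genes of each pathway list with the smallest p were named, together with all genes of the KEAP1-NFE2L2 axis, which were described in full after their values were seen. The genes and lists were chosen with earlier results of these data known. The replicate number was no block in the fit reported. Same-numbered libraries did not deviate together (r = -0.17, -0.07 and 0.04). As siR-GAL3 replicate 2 lay far from the rest, it weighs heavily on these deviations, which cannot exclude a pairing. Alternatives were another pseudocount, filter, scaling and variance model, values without log transformation, blocks, and leaving out each library.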

Additional observations from a re-analysis of the deposited data

How the results depend on the processing

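The number of tested genes among the 10 with an unadjusted p under 0.05 (1 in the fit reported) was 2 with a pseudocount of 0.1, with no filter, after quantile normalization, after median-ratio scaling, without the intensity trend and when blocking on the library set, in each case OPTN and SQSTM1. Of all 8495 genes, 726 were under it with the pseudocount of 0.1, 776 after quantile normalization, 773 after median-ratio scaling and 734 without the trend. Blocking on the library set put 1174 of them under it, and with no filter it was 1623 of all 17648 rows. With a filter at a mean of 10 the number among the 10 was 1, SQSTM1 (unadjusted p = 0.0437 in limma). OPTN did not reach that mean, and 121 of all genes that did were under the threshold. On values without log transformation the number among the 10 was 3, where MAP1LC3B was added, against 750 of all 8495 genes. With each library left out in turn it was between 0 and 2, against between 344 and 1388 of all 8495 genes. It was 0 without siR-Con replicate 2, siR-Con replicate 3 or siR-GAL3 replicate 3. With the replicate block, that is the replicate number as a block, the number was 0 (OPTN unadjusted p = 0.0963 in limma). Whether same-numbered libraries form pairs is not known. On values without log transformation 2 genes, SQSTM1 and MAP1LC3B, passed the study criteria, because the threshold of 1 is then a difference of 1 expression unit. Abundant genes pass such a threshold more easily, and the share of all genes past it was not computed. With each library left out, the groups did not overlap for between 3 and 5 genes, 5 without siR-GAL3 replicate 1. Groups separate more easily with fewer libraries. The share over all genes was not computed for these settings, so these counts cannot be read as a result about the 10 genes.

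OPTN kept its direction in all 14 alternatives it was in and lost an unadjusted p under 0.05 in 5 of them, the replicate block and 4 of the 6 left-out libraries. SQSTM1 kept its direction in all 15 and had an unadjusted p under 0.05 in 10. The direction turned for MAP1LC3A (-0.0388 when blocking on the library set, -0.0325 without siR-GAL3 replicate 2, at most 0.290 with a library left out) and GABARAPL2 (-0.0764, -0.0747 and at most 0.127). The median log2 fold change of the tested genes was -0.0388 when blocking on the library set and between -0.0325 and 0.0760 with each library left out. It was not computed without log transformation. LGALS3 lost an unadjusted p under 0.05 with a pseudocount of 0.1 (log2 fold change -4.03), with no filter (-2.91), with a filter at a mean of 10 (-2.91) and without siR-Con replicate 1, 2 or 3. With each library left out its value lay between -3.88 and -1.35.

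Of all genes, 736 had an unadjusted p under 0.05. This number was 1623 with no filter and 121 with a filter at a mean of 10, which test different numbers of genes, 1174 when blocking on the library set and between 344 (without siR-Con replicate 3) and 1388 (without siR-GAL3 replicate 2) with each library left out, with 350 without siR-Con replicate 2 and 1249 without siR-GAL3 replicate 1. The count of adjusted p-values under 0.05 was 106 when blocking on the library set, 167 without siR-GAL3 replicate 2 and 6 with the replicate block. Depth per library is unknown, so counting error could not be given, and the authors' correction within groups limits what the spread between replicates shows.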

Other observations

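The genes whose values followed SQSTM1 and MAP1LC3B most closely over the 6 libraries were looked up among the 8495 genes tested, as a description over 6 points that share their libraries and the authors' scaling. For SQSTM1 they were NPLOC4, a cofactor of the VCP segregase that handles ubiquitinated proteins (Pearson r = 0.989), KPNA1, a nuclear import receptor (r = 0.971), and GPR108 (r = 0.967). In all, 10 genes had r over 0.95 with SQSTM1. For MAP1LC3B they were KCNN2, a calcium-activated potassium channel (r = 0.993), SPA17 (r = 0.991) and MACIR (r = 0.989), among 68 genes with r over 0.95.

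BNIP3, the most abundant of the other selective receptors and a mitophagy receptor induced by hypoxia, was named after its values were seen. It was 26.1, 23.3 and 21.8 in siR-Con and 26.7, 22.6 and 31.2 in siR-GAL3, and the groups overlapped. The limma log2 fold change was 0.16 (unadjusted p = 0.241), and 0.28 without siR-GAL3 replicate 2 (unadjusted p = 0.0171, adjusted p = 0.197).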
